A study of Rattus norvegicus with 12 samples.

Results

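The 64 genes described here were abundant in rat brain and close to undetected in rat testis. They were chosen by 2 measured values: a brain mean (6 libraries) of 100 FPKM or more and a testis median (6 libraries) of 0.5 FPKM or less, which 64 of 25908 genes in the table met. FPKM is the number of sequenced fragments scaled to gene length and to library size. The gap between the tissues is thus what chose the genes, and it is given as a description. Genes assigned to other groups, such as myelin or synaptic genes, were to be left out, but the table carries Ensembl identifiers without gene names and none of them matched the name table, so all 64 were kept. For the same reason no function, cell type or sequence is given for single genes, and genes without a printed identifier are called by their rank in mean brain level.

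The rats were adult male Sprague Dawley animals 15 weeks old, either wild type or carrying the transgene labelled hDNMT3A, a human DNMT3A gene. Brain and testis were sequenced from each genotype, which gave 4 groups of 3 libraries. The sources used here do not give the promoter of the transgene, the number of founder lines or the part of the brain taken. They also do not give whether replicates are separate rats, so the p-values measure the spread between these libraries, which may be technical. Defining markers of brain and testis were not analysed here, for want of gene names.

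As background, DNMT3A is an enzyme that adds methyl groups to cytosines in DNA that do not yet carry them, and it is active in neurons after birth. The adult brain holds many transcripts seen in few other organs, among them those for synaptic transmission, the neuronal cytoskeleton and glial functions. The testis transcribes an unusually wide range of genes during sperm formation, so genes that are abundant in brain and almost silent in testis are a narrow class. Which of these functions the 64 genes serve cannot be read from their identifiers.

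In brain the 64 genes ran from 101 to 984 FPKM in their mean over 6 libraries, with a median of 156 FPKM. They were 9.44% of the 678 genes that reached 100 FPKM in brain, and the remaining 614 had a median of 163 FPKM. Most members sat in the lower part of this range. There were 31 under 150 FPKM, 29 of at least 200 FPKM and 6 of at least 500 FPKM. The 8 most abundant members held 36.6% of the summed level, and the first of them was the 25th most abundant gene of the brain table.

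**Figure D1:**
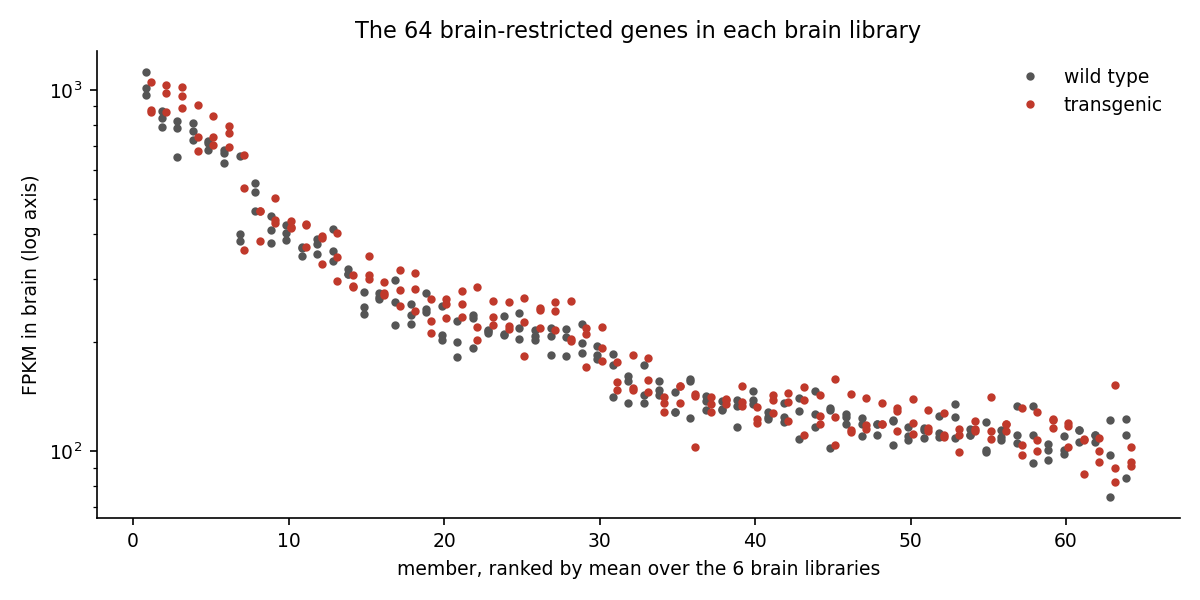
FPKM in brain on a log axis for the 64 genes, ranked by their mean over the 6 brain libraries, with each library as a point (wild type in grey, transgenic in red). The points of the genotypes overlap at 54 of the 64 ranks, and the rank 7 and rank 63 genes spread most.

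The top-ranked gene stood at 1012, 968 and 1121 FPKM in the wild-type brain libraries (replicates 1, 2 and 3) and at 867, 1054 and 881 FPKM in the transgenic ones. The rank 2 gene stood at 833, 875 and 788 FPKM in wild type and at 867, 978 and 1030 FPKM in transgenic brain. The groups overlapped for both of these genes. The rank 4 gene stood at 770, 728 and 808 FPKM in wild type and at 740, 908 and 675 FPKM in transgenic brain, where transgenic replicates 2 and 3 were the highest and the lowest of the 6 libraries. The rank 5 gene stood at 712, 681 and 722 FPKM against 703, 846 and 742 FPKM, again with the highest value in transgenic replicate 2.

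Read counts, which could be worked back from the deposited values, give the precision of these levels. Recovered totals ran from 14004547 to 15700711 reads over the 6 brain libraries. A member had between 216 and 56763 reads in a brain library, and the median member had 6605 reads on average. Counting error alone was therefore small: its coefficient of variation, the SD as a percent of the mean, had a median of 1.24% and a highest value of 6.12%. These figures leave out amplification, since copies of 1 molecule were not told apart.

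The recovered gene length is a property that the thresholds did not use directly, although FPKM divides by it. The 64 genes had a median length of 2074 bp (quartiles 1375 and 3559 bp), and the other 614 abundant genes one of 1707 bp (quartiles 1007 and 2703 bp). The 523 genes of 10 to 100 FPKM in brain under the same testis threshold were longer, with a median of 2737 bp (quartiles 1672 and 4012 bp). The shortest member had 79 bp and the longest 6854 bp. Only 3 of the 64 were under 300 bp, at 79, 94 and 264 bp, against 22 of the 614. These 3 had the fewest reads for their level, 216 to 947 per brain library.

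Testis levels, which the choice of genes fixed, were near the limit of detection. The median member had a testis median of 0.115 FPKM, and 9 members had a testis median of 0. Over the 6 testis libraries 3 members had no read at all, 35 had reads in every library, and no library held more than 43 reads of any member. Together the 64 genes took 415, 454 and 416 reads in the wild-type testis libraries and 459, 516 and 490 in the transgenic ones. As a share of all reads this was 0.00273%, 0.00311% and 0.00261% in wild type and 0.00304%, 0.00348% and 0.00304% in transgenic testis, so the shares of the groups overlapped where the read numbers did not. None of the 64 reached a mean of 1 FPKM over the 6 testis libraries. The genotype test was run in brain only, so no gene was tested for genotype in testis.

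Genes lay close to the thresholds on both sides, so the class has no sharp edge. By brain mean, the nearest members inside stood at 101 and 103 FPKM, and the nearest genes outside at 99.6 and 99.6 FPKM. By testis median, the nearest members inside stood at 0.453 and 0.499 FPKM, and the nearest outside at 0.568 and 0.578 FPKM. A single testis library could exceed the threshold: 5 members passed 1 FPKM in at least 1 testis library. The highest such value, 3.36 FPKM for ENSRNOG00000041989 in transgenic testis replicate 1, came from 4 reads on a gene of 79 bp.

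The genotype comparison asked whether these brain transcripts differed between transgenic and wild-type brain. It is independent of the thresholds, which used the mean over both genotypes. None of the 64 genes passed the test (limma on log2(FPKM + 0.5), Benjamini-Hochberg adjusted p under 0.05 over 13827 genes), and the lowest adjusted p of a member was 0.33. Over all genes tested, 16 passed, or 0.116%, a share too low for a count of 0 in 64 genes to set them apart. With limma's voom on the recovered reads the count of members was also 0. At an unadjusted p under 0.05 limma gave 8 of the 64 genes, or 12.5%, against 7.87% of all genes tested. Among the other 614 abundant genes the share was 11.2%, near that of the members. By direction, 7 of the 64 genes were higher in transgenic brain at this threshold, against 3.43% of all genes tested. Only 1 of the 64 was lower, against 4.44%. The members thus leaned to the higher side, where all genes tested leaned to the lower. Shares by direction are not given for the other abundant genes, and the lean was not tested. At the same threshold voom gave 10 of the 64 genes against 7.75%.

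Differences were small in every member. The log2 fold changes, transgenic minus wild type, ran from -0.23 to 0.35 with quartiles of -0.01 and 0.13, and 56 of the 64 were under 0.2 in size. The median size was 0.11 on the log2 scale, against 0.09 over all genes tested and 0.08 over the other 614 abundant genes. All 64 intervals (95%, unadjusted, from limma) lay within a 2-fold change in either direction, and 58 lay within 0.5 on the log2 scale. Over all genes tested, 90.9% and 65.9% of intervals did so. That background holds many genes of lower level. The median SE was 0.093 in the members, 0.119 over all genes tested and 0.084 over the other 614 abundant genes. By this median the members were not more precise than genes of like level. Among the 64 intervals the lowest bound was -0.54 and the highest 0.75, and 56 of them held 0.

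**Figure D2:**
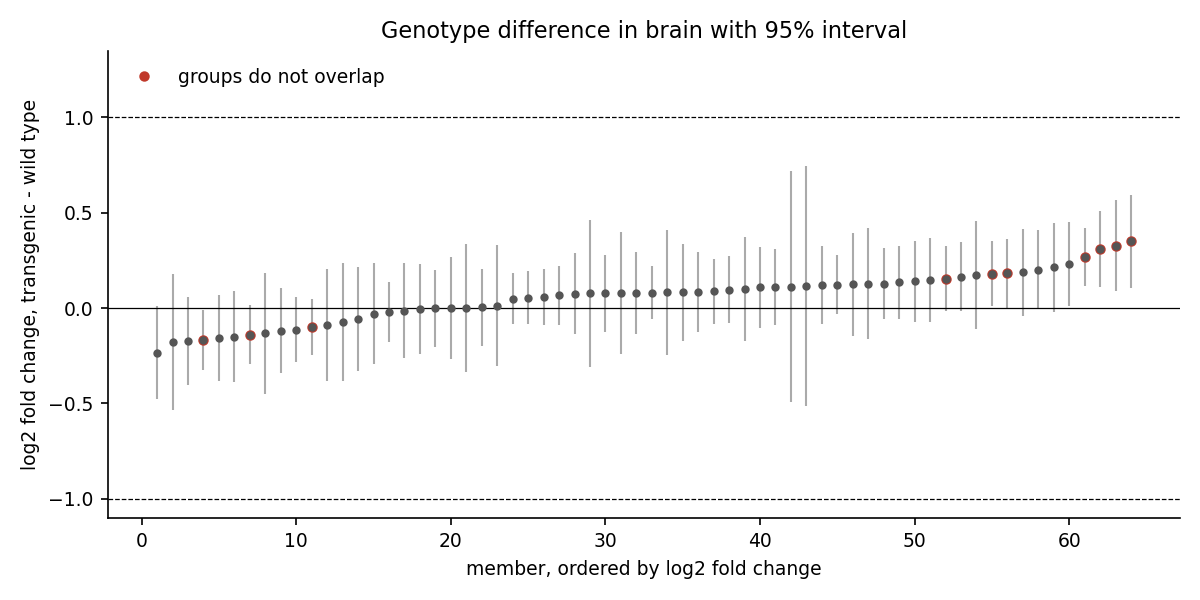
Log2 fold change in brain, transgenic minus wild type, for the 64 genes ordered by value, with the 95% interval from limma as bars and dashed lines at a 2-fold change. The values run from -0.23 to 0.35, each interval stays within the dashed lines, and red points mark the 10 genes whose groups do not overlap.

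More members had a higher than a lower mean log2 level in transgenic brain. The fold change was positive for 45 and negative for 19 of the 64 genes, and the median was 0.08 on the log2 scale. Over all genes tested the median was 0.00 and 50% were positive, and over the other abundant genes the median was 0.04 and 63.8% were positive. The positive count ran from 41 to 49 when each of the 6 brain libraries was left out in turn. The difference of these shares was not tested, since the genes share libraries and are not independent.

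Groups that do not overlap are a second description of the same libraries. In 10 of the 64 genes, or 15.6%, each transgenic library lay on 1 side of each wild-type library, against 13.4% of all genes tested and 15.6% of the other abundant genes. Transgenic lay above wild type in 7 of the 64, against 6.15% of all genes tested, and below in 3 of the 64, against 7.2%. The total share among the members was thus near the background. By direction it was not: more members lay above than below, while over all genes tested more lay below. Shares by direction are not given for the other abundant genes, and this was not tested.

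ENSRNOG00000020263 had the highest fold change of the 64 and was the rank 3 gene, with a length of 3559 bp. It stood at 651, 784 and 821 FPKM in wild-type brain and at 890, 1016 and 960 FPKM in transgenic brain. All transgenic values were higher than the highest wild-type one, and wild-type replicate 1 was the lowest of the 6. The means were 752 ± 89.2 and 955 ± 63.1 FPKM (SD, n = 3), a 1.27-fold difference. The log2 fold change was 0.35 (SE 0.10) with an adjusted p of 0.444 by limma, which did not pass. With 34787 to 56763 reads per library, counting error came to 0.473% for this gene.

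ENSRNOG00000041989, at 79 bp the shortest member, had the next highest fold change. It stood at 182, 201 and 229 FPKM in wild-type brain and at 256, 277 and 235 FPKM in transgenic brain. The groups did not overlap, but the gap between wild-type replicate 3 and transgenic replicate 3 was small. These values rest on 216 to 343 reads per library, and counting error alone came to 6.12%. The log2 fold change was 0.33 (SE 0.10), with an adjusted p of 0.467 by limma.

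ENSRNOG00000059605, the rank 8 gene with a length of 3575 bp, had the lowest fold change. It stood at 553, 520 and 461 FPKM in wild-type brain and at 461, 382 and 461 FPKM in transgenic brain. The groups met at 461 FPKM, where wild-type replicate 3 lay just under transgenic replicates 1 and 3. The means were 511 ± 46.8 and 435 ± 45.8 FPKM (SD, n = 3), and the log2 fold change was -0.23 (SE 0.10, adjusted p = 0.657 by limma).

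ENSRNOG00000053479, with a length of 264 bp, had the next lowest fold change. It stood at 123, 156 and 158 FPKM in wild-type brain and at 142, 144 and 103 FPKM in transgenic brain. The groups overlapped, and the difference came mostly from the low value of transgenic replicate 3. The log2 fold change was -0.18 (SE 0.15, adjusted p = 0.874 by limma). This gene had 0 reads in each testis library. Against a floor of 3 reads over the 6 testis libraries, its level in brain was at least 1111-fold higher.

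**Figure D3:**
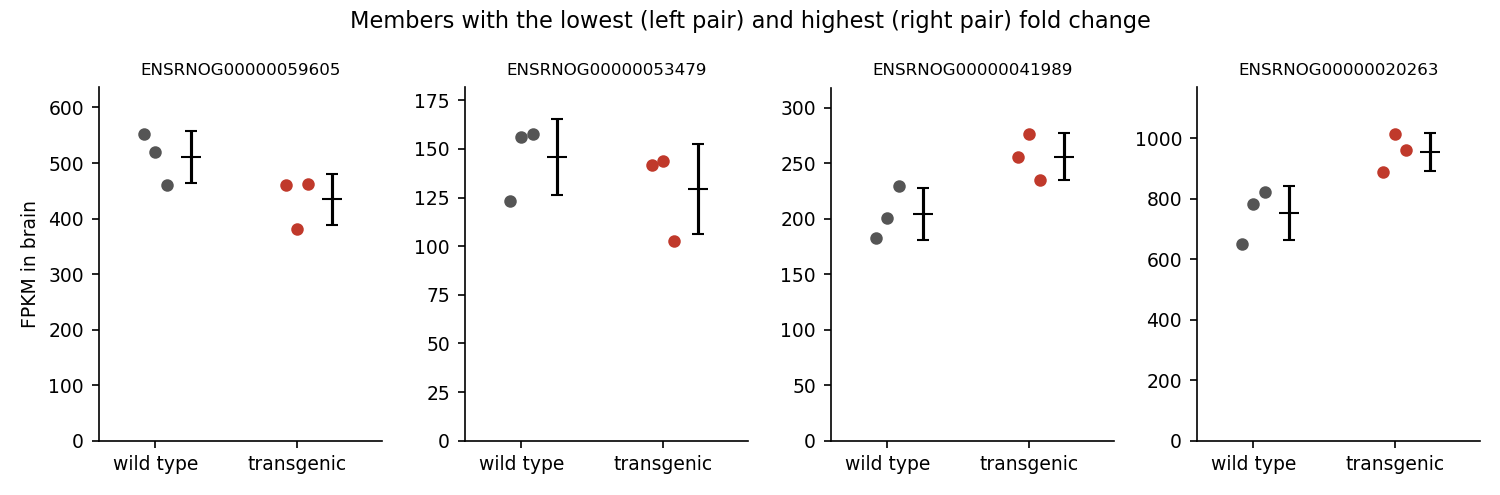
FPKM in brain of the 2 genes with the lowest and the 2 with the highest fold change among the 64, with each library as a point (wild type in grey, transgenic in red) and black bars for the mean ± SD over 3 libraries. The groups overlap in the left pair and are separate in the right pair, where ENSRNOG00000020263 has means of 752 and 955 FPKM, a difference that did not pass the test.

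The smallest p of the class belonged to a gene near its lower edge. The rank 59 gene stood at 104, 94.3 and 100.4 FPKM in wild-type brain and at 116, 122 and 123 FPKM in transgenic brain. Its groups did not overlap and its spread within groups was low, with a pooled coefficient of variation of 4.21%. The log2 fold change was 0.27 (SE 0.06, adjusted p = 0.33 by limma). The rank 15 gene came next, at 251, 240 and 276 FPKM against 307, 347 and 299 FPKM (log2 fold change 0.31, SE 0.08, adjusted p = 0.392 by limma).

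Summed over the 64 genes, brain levels were 15731, 15672 and 15810 FPKM in wild type and 15966, 17001 and 16790 FPKM in transgenic libraries. The groups did not overlap, and the transgenic mean was 5.39% above the wild-type mean. The sum of the other 614 abundant genes had the lower mean in transgenic brain, 225312 against 231269 FPKM, and its groups overlapped (221089 to 241302 FPKM in wild type, 220936 to 229059 FPKM in transgenic brain). As a share of all reads the members took 3.70%, 3.65% and 3.69% in wild type and 3.73%, 3.96% and 3.93% in transgenic brain. The sum gives most weight to the most abundant genes. The 4 genes with the largest positive difference in FPKM, ranks 2, 3, 6 and 15, came to 482 FPKM. The net difference between the means, with genes that lay lower in transgenic brain taken off, was 848 FPKM.

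Without these 4 genes, which were picked for their difference, the sums ran from 13144 to 13329 FPKM in wild type. In transgenic brain they ran from 13206 to 13864 FPKM, and the groups overlapped. Leaving out only the largest positive differences draws the sums together by itself. The transgenic mean was still the higher, 13604 against 13238 FPKM. The top-ranked gene lay the other way, with means of 1034 FPKM in wild-type and 934 FPKM in transgenic brain. The level of the median member did not separate the groups either, with 152, 167 and 152 FPKM in wild type and 153, 151 and 165 FPKM in transgenic brain. In bulk tissue, fewer cells that express a gene and less of its RNA per cell cannot be told apart.

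Spread between libraries of 1 genotype was larger than counting error. The coefficient of variation, pooled over the 2 genotypes, had a median of 8.79% over the 64 genes (quartiles 6.01% and 11.6%, range 2.46% to 30.7%). It was more than 2 times the counting error in 60 of the 64. For the other 614 abundant genes the median was 7.30% (quartiles 5.29% and 9.88%, range 1.53% to 55.9%). A value under 10% was found in 42 of the 64 genes, or 65.6%, and in 75.9% of the other abundant genes. Whether the 2 sets differ in spread was not tested, since their genes share the same libraries.

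**Figure D4:**
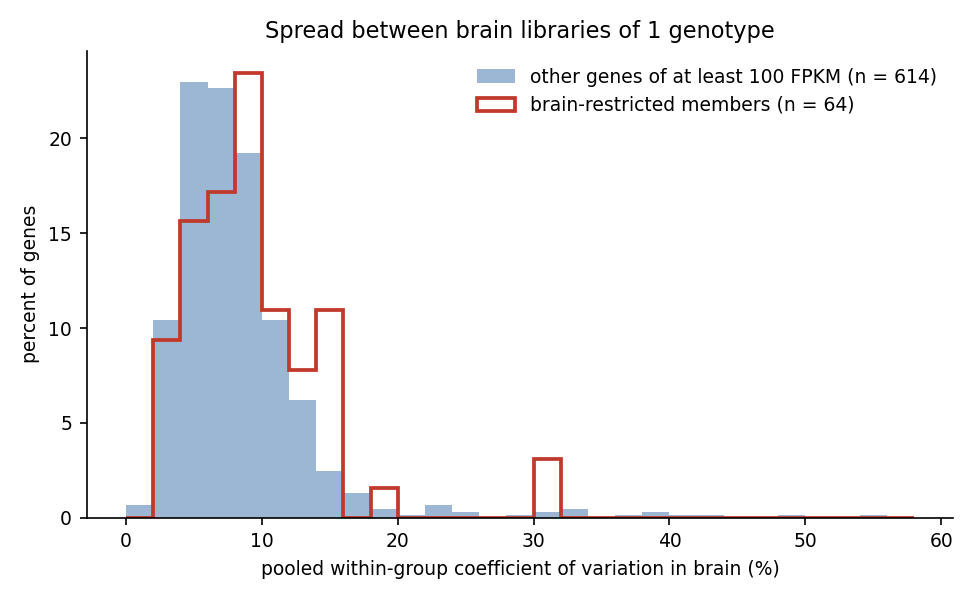
Pooled within-group coefficient of variation in brain (horizontal axis, percent) as the percent of genes per bin, for the 64 brain-restricted genes (red line) and the other 614 genes of at least 100 FPKM in brain (blue). The medians are 8.79% and 7.30%, and 2 members lie above 20%.

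By genotype, the median coefficient of variation over the 64 genes was 6.96% in wild-type and 9.01% in transgenic brain, and 46 of the 64 had the larger value in transgenic brain. The other abundant genes had medians of 6.29% in wild-type and 7.52% in transgenic brain, so the direction was not particular to the members. How many of them had the larger value in transgenic brain is not given here. The difference in spread between the genotypes was not tested.

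The most variable member was the rank 7 gene, with a length of 94 bp. It stood at 381, 656 and 399 FPKM in wild-type brain and at 661, 360 and 535 FPKM in transgenic brain, a pooled coefficient of variation of 30.7% against 3.88% from counting. Wild-type replicate 2 and transgenic replicate 1 were high together, and the genotypes overlapped over nearly their whole range. The rank 63 gene followed at 30.5%, with 97.5, 74.8 and 122 FPKM in wild type and 89.8, 153 and 82.0 FPKM in transgenic brain. Its highest values, in wild-type replicate 3 and transgenic replicate 2, fell in libraries where the rank 7 gene was at 399 and 360 FPKM.

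The third most variable was the rank 45 gene at 18.0%, with 132, 130 and 102 FPKM in wild type and 124, 104 and 159 FPKM in transgenic brain. At the other end stood the rank 38 gene at 2.46%, with 137, 130 and 131 FPKM in wild type and 135, 138 and 139 FPKM in transgenic brain. The rank 54 gene (2.94%) and the rank 56 gene (2.96%) were nearly as even. The rank 54 gene ran from 110.5 to 121 FPKM over the 6 libraries. The SE of the genotype difference was 0.06 on the log2 scale for each of these steady genes. It is low because it is computed from the same spread.

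The deviations from the group means were shared between members. One axis over the libraries, the leading component of the deviations of log2(FPKM + 0.5), took 64.5% of their variance in the 64 genes, and the next took 22.9%. In the other 614 abundant genes the leading component took 50.9%. There it set wild-type replicate 3 (loading 0.41) and transgenic replicate 2 (0.56) against wild-type replicate 2 (-0.54) and transgenic replicate 1 (-0.43). Wild-type replicate 1 (0.13) and transgenic replicate 3 (-0.13) lay between, so much of the pattern below was not particular to the members. Among the members it set wild-type replicate 3 (loading 0.46) and transgenic replicate 2 (0.64) against wild-type replicate 2 (-0.39), transgenic replicate 3 (-0.42) and transgenic replicate 1 (-0.23), with wild-type replicate 1 near 0 (-0.07). Without the 2 most variable genes the share was 61.6%. The loadings were then 0.50 for wild-type replicate 3 and 0.61 for transgenic replicate 2, against -0.50 for transgenic replicate 3 and -0.28 for wild-type replicate 2. Those of wild-type replicate 1 (-0.22) and transgenic replicate 1 (-0.11) changed places, so their position on the axis rests on these 2 genes. The components describe these 6 libraries only, and deviations from a mean of 3 are tied to each other.

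The 64 genes fell on both sides of this axis, 34 on the side of transgenic replicate 2 and 30 on the other. The fold change did not follow it: the median log2 fold change was 0.09 on the first side and 0.08 on the second. Transgenic replicate 2 lay above transgenic replicate 3 in 30 genes and below it in 34, by log2 ratios from -0.61 to 0.90. In 25 of those 30 genes wild-type replicate 3 lay above wild-type replicate 1, and in 28 of those 34 it lay below. In the other abundant genes these counts were 300 of 398 and 141 of 216.

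**Figure D5:**
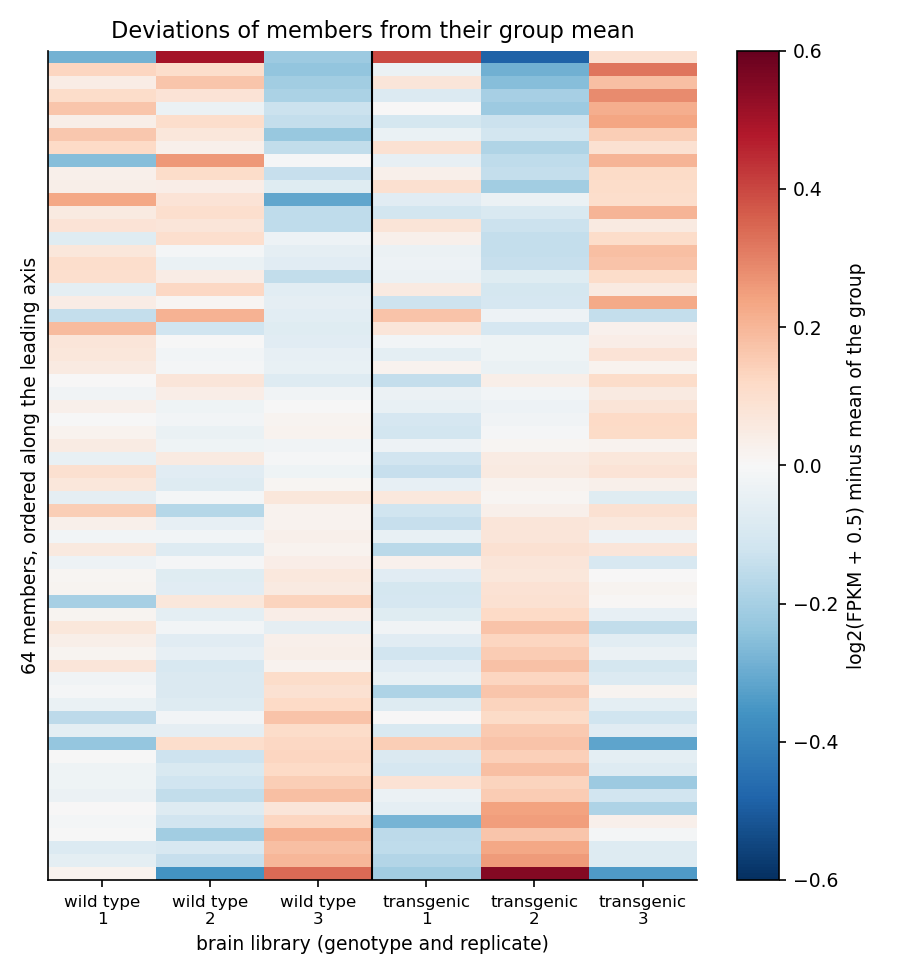
Deviation of log2(FPKM + 0.5) from the mean of the group for the 64 genes (lines, ordered along the leading axis) in each brain library (columns, 3 wild type and 3 transgenic). Genes at the bottom are high in wild-type replicate 3 and transgenic replicate 2. Most of those at the top are high in transgenic replicate 3. Each genotype is set to its own mean, so a difference between genotypes cannot show here.

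The highest values gathered in transgenic replicates 2 and 3. Of the 64 genes, 21 had their highest brain value in transgenic replicate 2 and 20 in transgenic replicate 3. In wild-type replicate 2, 20 had their lowest, and 16 in wild-type replicate 3. Such counts are not given for the other abundant genes. Their median log2 deviation from the group mean was 0.06 and 0.01 in these transgenic libraries and -0.06 and 0.05 in these wild-type ones. Whether the gathering is particular to the members was not tested. Wild-type replicate 2 differed from the other brain libraries in another way. The 203 genes that are abundant in testis (mean of 100 FPKM or more) and near 0 in brain (median of 0.5 FPKM or less) stood there at 1.59% of their testis level, against 0.051% to 0.330% in the other 5 brain libraries. Without that library 0 of the 64 genes passed, the median log2 fold change was 0.07, and 42 of the 64 were positive. Its part in the spread of the members was not tested.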

How the data were processed

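FPKM values of 12 libraries, for 25908 Ensembl identifiers, were deposited by the authors in a single table. Per the labels' protocols, libraries were made from total RNA with the Illumina TruSeq kit. The submitters' processing notes name Bowtie 1.0.1 and genome build Rnor_6.0. The sources used here do not name the annotation, the counting tool or the strand setting. Overlapping and near-identical genes may therefore be miscounted. Of the identifiers, 0 matched the RefSeq name table (GRCr8, 47357 genes).

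Reads and gene lengths were recovered from the FPKM steps: for 100% of genes the 12 values were whole reads within 0.002 reads for a single length. At least 99.987% of every recovered total was in listed genes. Within a genotype, the chi-square per gene between 2 brain libraries was 7.77 to 14.2, and none was treated as a duplicate.

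Genes whose brain mean reached 1 FPKM were compared between genotypes by limma 3.58.1 (R 4.3.3, intensity trend, two-sided, pseudocount 0.5) and by voom. Both were also run on simulated counts, drawn independently for each gene. Such counts lack the deviations that genes of these libraries share, so that run cannot show how the tests behave under them. Other steps used Python 3.11.15, numpy 2.4.6, pandas 2.3.3 and matplotlib 3.10.9. Printed identifiers are the 2 members with the highest and the 2 with the lowest fold change. Other members described by rank were chosen by level, p or spread. Members and lists were chosen with earlier results of these data known. Gene lists by symbol were not analysed here.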

Additional observations from a re-analysis of the deposited data

How the results depend on the processing

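The count of members that passed was 0 in each of the 17 other fits and at an adjusted p under 0.1; the lowest adjusted p of a member was 0.237, with quantile normalization. It was 0 for the 43 genes with a testis median of at most 0.2 FPKM and 1 for the 165 genes with a brain mean of at least 50 FPKM. That gene, ENSRNOG00000059277, looked up after its value was seen, has 81 bp and 29 to 116 reads per brain library (log2 fold change -1.50, SE 0.15, adjusted p = 0.024 by limma). Leaving genes out by name was not run.

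Over all genes, calls numbered 16, against 7 with a pseudocount of 0.1, 8 with a filter of 5 FPKM, 29 with no filter, 57 with all 12 libraries in 1 fit, 27 at an adjusted p under 0.1 and 2 to 8 when each brain library was left out (2 without wild-type replicate 2). With the replicate number as a block there were 0 calls over all genes (4 members at an unadjusted p under 0.05 by limma). Same-numbered libraries did not deviate together (r = -0.04, -0.17 and -0.22 across all genes tested), so the numbers were not taken as pairs. The 4 printed members kept their direction in each of the 12 alternatives that can move a fold change; the fold change of ENSRNOG00000053479 ran from -0.29 to -0.02.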
